A study of Mus musculus with 18 samples.

Results

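The livers described here came from hepatocyte mineralocorticoid receptor (MR) knockout (HMRKO) mice. There were 3 livers taken 1 day after myocardial infarction (HMRKO + MI) and 3 taken 1 day after a sham operation (HMRKO + sham). These are 6 of the 18 liver samples in the series, chosen by genotype, operation and time. Every gene with enough counts was examined, which left 14266 of 50600 genes. HMRKO mice carry MR flox/flox alleles and Cre recombinase under the albumin promoter (MR flox/flox; Alb-Cre), so the deletion is directed to hepatocytes and the other cells of the liver keep their MR alleles. Littermate controls (LC, MR flox/flox without Cre, called wild type in the labels) at the same time point, 3 after MI and 3 after sham operation, served for comparison. The mice were C57BL/6 males at postnatal week 12, and MI was made by tying off the left anterior descending artery of the heart for good. The hour of day at which livers were taken was not given in the sources used here. The samples are named as separate livers, but the labels do not say that each came from a different mouse, so the p-values measure the spread between these samples.

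MR, encoded by Nr3c2, is a nuclear receptor that binds aldosterone and glucocorticoids and acts as a transcription factor. An infarct in the heart sends cytokines and stress hormones into the blood, and hepatocytes answer such signals by changing their output of plasma proteins (the acute-phase response) and their handling of lipid, glucose and amino acids. In whole-liver RNA, fewer cells of a type and less RNA per cell cannot be told apart.

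Expression is given for each liver as CPM, the counts of a gene relative to all counts of its library after scaling by the trimmed mean of M values (TMM), and changes as log2 fold changes of MI over sham from edgeR's quasi-likelihood test, with standard errors (SE) and Benjamini-Hochberg adjusted p-values. The 6 HMRKO libraries held 19098704 to 28945526 counts. Their correlations of log2 CPM were 0.9756 to 0.9836 among the sham livers, 0.9723 to 0.984 among the MI livers and 0.9046 to 0.9299 between these groups. Counts on mitochondrially encoded genes made up 8.682% to 9.096% of the HMRKO + MI libraries and 10.12% to 15.61% of the HMRKO + sham libraries, with the highest share in HMRKO + sham replicate 2. The hepatocyte transcript Alb was at 35418, 23251 and 33202 CPM after sham operation and at 43869.9, 38982 and 38699 CPM after MI, among the most abundant genes in every liver.

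The targeted gene was examined first. In HMRKO livers Nr3c2 was at 2.93, 3.76 and 2.55 CPM after sham operation and 0.895, 1.10 and 0.913 CPM after MI. All livers of the MI group lay below all those of the sham group (log2 fold change −1.65, SE 0.29, adjusted p = 0.000756 from edgeR). In LC livers it was at 5.60, 6.70 and 4.71 CPM after sham operation and at 3.56, 2.13 and 1.90 CPM after MI, so within each operation every HMRKO liver was below every LC liver. The count table does not separate the floxed exons from the rest of the gene. The fall of Nr3c2 after MI was present in HMRKO livers, and its difference from the fall in LC livers (−1.18) did not pass the test (difference −0.48, SE 0.38, adjusted p = 0.408 from edgeR).

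At 1 day, MI was accompanied by broad changes in HMRKO livers. Of the 14266 genes tested, 1293 (9.06%) were higher and 1621 (11.4%) were lower in HMRKO + MI than in HMRKO + sham livers with an adjusted p under 0.05 and a log2 fold change beyond 1 in size, which is 20.4% in all. Without the fold threshold 3138 genes (22%) rose and 3099 (21.7%) fell, together 43.7%. These shares are the background against which the gene groups below are read. The groups are lists chosen with earlier results of these data known, so their shares describe the data and test nothing. In 55.8% of genes the 3 livers of one group did not overlap with those of the other. At a log2 fold change beyond 2, 344 genes (2.41%) were higher and 486 (3.41%) were lower.

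**Figure D1:**
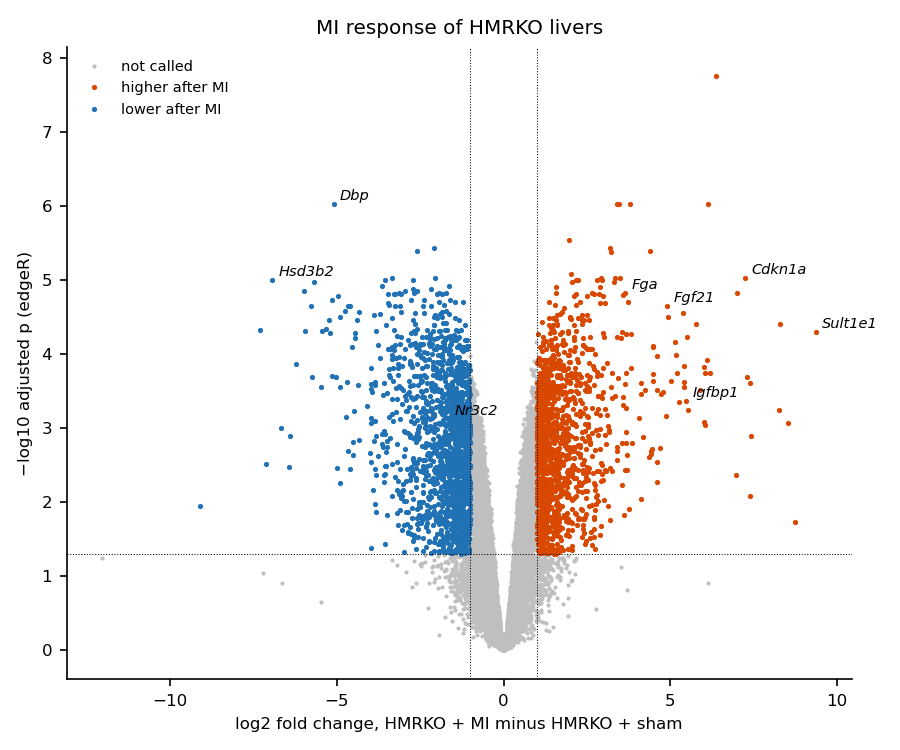
Each point is 1 of 14266 genes, with the log2 fold change of HMRKO + MI over HMRKO + sham livers (3 per group) on the x axis and −log10 of the adjusted p from edgeR on the y axis. Dotted lines mark the thresholds, 1293 genes pass on the right and 1621 on the left, with Sult1e1 among the labeled rises and Hsd3b2 and Dbp among the labeled falls.

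The genes that rose most included enzymes, secreted binding proteins and a cell cycle inhibitor. Sult1e1, the sulfotransferase that inactivates estrogen, was at 0, 0.0482 and 0.132 CPM in the sham livers and at 46.5, 51.2 and 30.9 CPM after MI (log2 fold change 9.38, SE 1.04, adjusted p = 5.02e-05 from edgeR). Cdkn1a, the p21 inhibitor of cyclin-dependent kinases, was at 0.461, 0.915 and 0.571 CPM after sham operation and at 182, 49.2 and 61.4 CPM after MI (log2 fold change 7.23, SE 0.58, adjusted p = 9.59e-06). Igfbp1, a secreted protein that binds insulin-like growth factors, was at 3.27, 4.14 and 4.87 CPM after sham operation and at 271, 151 and 127 CPM after MI (log2 fold change 5.48, SE 0.87, adjusted p = 0.000431). For these 3 genes the lowest liver after MI was far above the highest sham liver. Slc34a2, a sodium-dependent phosphate transporter, rose by 6.12 on the log2 scale, Igdcc4, a cell-surface protein of the immunoglobulin superfamily, by 6.37, Adcy1, an adenylyl cyclase, by 6.12 and Bmper, a secreted regulator of bone morphogenetic proteins, by 5.41. The protease inhibitor genes Serpina3i (6.18) and Serpina3c (6.02) rose too, but members of this family are near-identical and the counting could split their reads. Trat1, an adaptor of the T cell receptor, and Itga2, an integrin collagen receptor, had no counts in the HMRKO + sham livers and were at 1.01, 3.47 and 1.17 CPM and 1.90, 1.72 and 1.27 CPM after MI, which was at least 14.04-fold and at least 12.16-fold higher against a floor of 3 counts per library. The remaining genes by the same rule were Fam177a (7.43), Hesx1 (6.05), Xrra1 (6.03) and Lncenc1 (6.01), which stayed at or under 3.47 CPM on average after MI. Fam177a was at 0, 0.0482 and 0 CPM in HMRKO + sham livers but at 3.45, 2.22 and 3.51 CPM in LC + sham livers. In LC + MI livers it was at 0, 3.82 and 3.70 CPM.

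The genes that fell most included enzymes, a transcription factor of the clock output and interferon-inducible genes. Upp2, a uridine phosphorylase, was at 396, 448 and 414 CPM after sham operation and at 4.98, 5.29 and 9.64 CPM after MI (log2 fold change −5.98, SE 0.52, adjusted p = 1.40e-05 from edgeR). Dbp, a transcription factor under direct control of the circadian clock, was at 289, 308 and 291 CPM after sham operation and at 7.94, 8.22 and 9.90 CPM after MI (log2 fold change −5.09, SE 0.28, adjusted p = 9.56e-07). The groups did not overlap for either gene. Hsd3b2 (−6.95) and Hsd3b3 (−5.68), hydroxysteroid dehydrogenases, fell together, and so did the interferon-inducible Gbp10 (−6.22) and Apol9b (−5.19), each a member of a family whose reads may be shared. Tk1, the thymidine kinase of DNA synthesis, fell by 5.24 on the log2 scale, and the further falls by the rule were Clec2h (−7.29), Nrep (−5.95), Keg1 (−5.34), Syt3 (−5.16) and Dclk3 (−5.14). The values of Ces2b, a carboxylesterase, and Selenbp2, a selenium-binding protein, varied widely among the sham livers, with 7.79, 0.578 and 0.176 CPM for Ces2b and 263, 992 and 131 CPM for Selenbp2. After MI Ces2b had no counts, at least 19.89-fold lower against the floor of 3 counts per library, and its adjusted p from edgeR was 0.0114 with all livers and 0.0524 without HMRKO + sham replicate 1. Selenbp2 was at 13.3, 20.5 and 9.74 CPM (log2 fold change −4.99, SE 1.12, adjusted p = 0.00348).

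**Figure D2:**
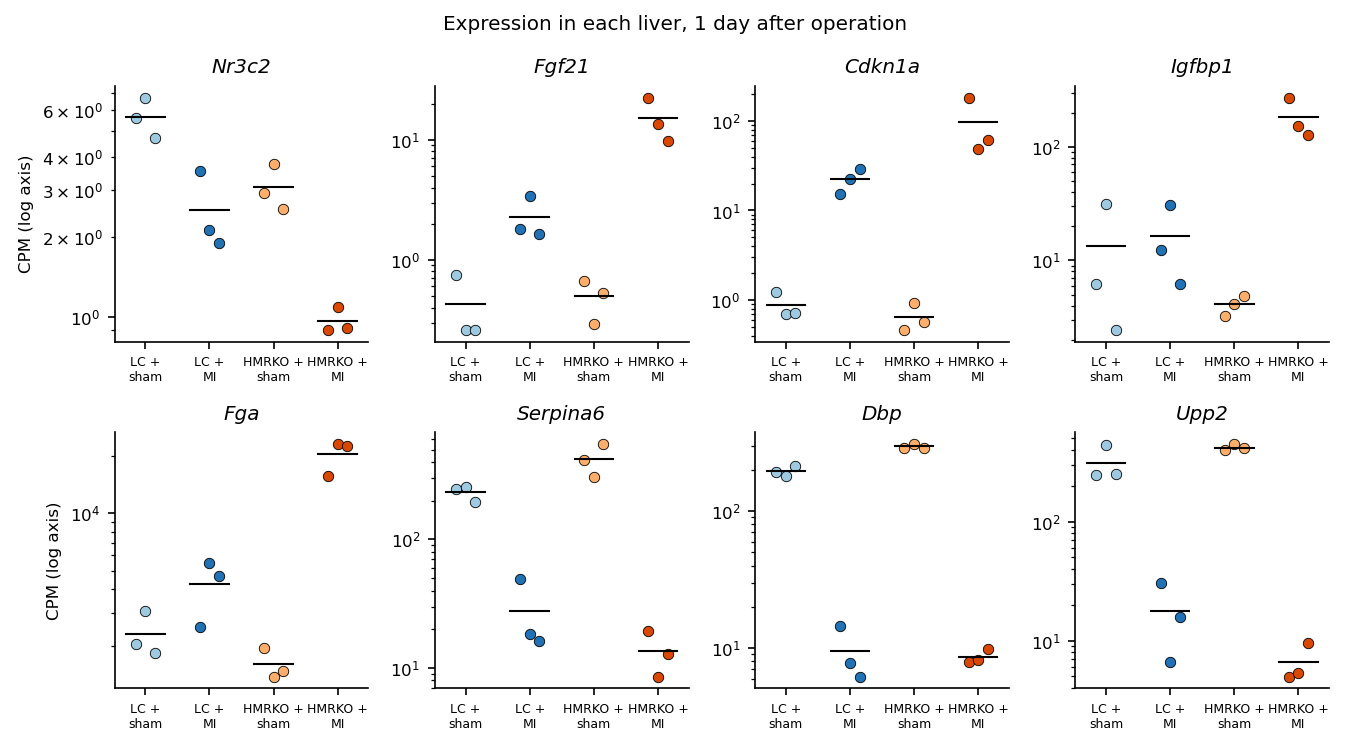
The 8 panels, 1 gene each, plot CPM on a log axis in the 12 livers, 3 for each genotype and operation, with a line at each group's mean. In HMRKO livers Nr3c2, Serpina6, Dbp and Upp2 were lower and Fgf21, Cdkn1a, Igfbp1 and Fga higher after MI, and the 2 groups do not overlap in any panel.

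Genes of the unfolded protein response rose as a group. These genes encode chaperones, disulfide isomerases and degradation factors of the endoplasmic reticulum (ER), and many are switched on through an ER stress element in the promoter, to which nuclear factor Y and the ATF6 factor bind. Of 25 genes listed and tested, 18 rose and the other 7 did not pass the test, with a median log2 fold change of 1.41, against 22% of all genes rising. The element, searched as CCAAT and CCACG with 9 bases between them on both strands in the 250 bases before the RefSeq start site (GRCm38.p6), was found for 9 of the 22 listed genes with a promoter entry and for 0.13% of 27025 genes. The 4 promoters of the smallest p among those with the element are shown because these genes rose, and capitals mark the matched bases. Calr lies at chr8:84846932-84847181, minus strand, Hsp90b1 at chr10:86705445-86705694, minus strand, Dnajc3 at chr14:118937682-118937931, plus strand and Hspa5 at chr2:34771840-34772089, plus strand.
Calr: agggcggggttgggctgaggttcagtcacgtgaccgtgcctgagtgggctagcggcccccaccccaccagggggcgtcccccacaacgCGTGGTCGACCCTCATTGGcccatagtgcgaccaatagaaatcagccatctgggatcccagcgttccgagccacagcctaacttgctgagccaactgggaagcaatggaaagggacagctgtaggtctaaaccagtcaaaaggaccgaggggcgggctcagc
Hsp90b1: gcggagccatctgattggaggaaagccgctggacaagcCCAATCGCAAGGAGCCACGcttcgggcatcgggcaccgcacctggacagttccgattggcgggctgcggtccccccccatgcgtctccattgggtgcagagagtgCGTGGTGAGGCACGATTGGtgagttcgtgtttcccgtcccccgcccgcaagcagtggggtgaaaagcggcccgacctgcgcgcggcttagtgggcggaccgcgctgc
Dnajc3: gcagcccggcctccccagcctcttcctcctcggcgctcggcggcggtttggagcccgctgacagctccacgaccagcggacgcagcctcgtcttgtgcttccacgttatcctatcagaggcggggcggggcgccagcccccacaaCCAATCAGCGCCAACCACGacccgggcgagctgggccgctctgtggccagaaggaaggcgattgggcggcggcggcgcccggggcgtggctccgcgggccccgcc
Hspa5: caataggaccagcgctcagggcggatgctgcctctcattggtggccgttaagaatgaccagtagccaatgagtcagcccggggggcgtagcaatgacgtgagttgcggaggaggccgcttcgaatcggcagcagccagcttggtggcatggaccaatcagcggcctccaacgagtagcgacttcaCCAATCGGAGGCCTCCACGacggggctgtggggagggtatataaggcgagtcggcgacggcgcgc

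Hspa5, the main ER chaperone (BiP), was at 423, 307 and 324 CPM after sham operation and 2387, 1617 and 1697 CPM after MI (log2 fold change 2.44, SE 0.36, adjusted p = 0.000305 from edgeR). Hsp90b1, the ER member of the heat shock protein 90 family, was at 511, 438 and 433 CPM after sham operation and at 4090.4, 2293 and 1924 CPM after MI (log2 fold change 2.59, SE 0.32, adjusted p = 8.66e-05). Calr, a lectin chaperone, was at 759, 649 and 598 CPM and at 2236, 1899 and 1769.7 CPM (log2 fold change 1.56, SE 0.18, adjusted p = 6.11e-05). Every MI liver exceeded every sham liver for these genes, and for Dnajc3, the co-chaperone that restrains the kinase PERK, whose log2 fold change was 1.41. Further rises were Sdf2l1 (2.97), Creld2 (2.67), Derl3 (2.24), Sec24d (2.09) and Manf (1.93), and Xbp1, a transcription factor of the pathway, rose by 1.01. Targets of ATF4, the factor of the integrated stress response, went the same way. Among 18 tested, 11 rose and 1 fell (Shmt2, −0.86), with a median of 0.90. The serine synthesis enzyme Psat1 (4.92), the asparagine synthetase Asns (4.50) and the mitochondrial folate enzyme Mthfd2 (3.59) rose most, from under 1 CPM in each sham liver for Psat1 and Asns. Of 14 cytosolic heat shock genes, 6 fell and the others did not pass, among them Hsph1 (−2.15) and Hspb1 (−2.32).

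Acute-phase proteins, which the liver secretes into plasma during inflammation, rose in 18 of 35 genes tested and fell in 3 (1 without HMRKO + MI replicate 1), with a median log2 fold change of 0.69. The chains of fibrinogen, the clotting protein, were among them. Fga was at 1969.5, 1388 and 1488 CPM in the sham livers and at 15576, 23026 and 22439 CPM after MI (log2 fold change 3.66, SE 0.33, adjusted p = 1.52e-05 from edgeR), Fgb rose by 2.80 and Fgg by 2.96. Fga is shown because its promoter (chr3:83025903-83026152, plus strand) holds a STAT element, searched as TTCC and GGAA with 1 base between them. This element was found in 1.09% of all RefSeq genes, and in 2 of 25 acute-phase genes with an entry. Equally, 2 of 25 interferon-stimulated genes with an entry held it, a list in which 24 of 32 tested genes fell. The capitals mark the match in Fga, which begins 234 bases before the start site.
Fga: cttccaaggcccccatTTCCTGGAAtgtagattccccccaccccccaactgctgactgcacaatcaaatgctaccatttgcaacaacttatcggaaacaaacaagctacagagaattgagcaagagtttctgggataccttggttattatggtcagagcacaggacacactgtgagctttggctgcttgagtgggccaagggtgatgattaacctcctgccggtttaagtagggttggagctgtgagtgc

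The serum amyloid genes Saa1 (1.41) and Saa2 (1.53), which share reads, the inhibitors Serpina3n (3.20), Serpina3m (3.23) and Serpina3k (1.60), the inter-alpha-trypsin inhibitor chain Itih4 (1.01), the pentraxin Apcs (2.11) and the iron-binding lipocalin Lcn2 (2.84) rose. Hamp2 (−1.87), a hepcidin gene, Saa4 (−1.21) and complement factor Cfb (−0.65) fell. Interleukin-6 acts on hepatocytes through its receptor Il6ra, the shared chain Il6st and the transcription factor Stat3, and Socs3 feeds back on it. Il6ra was at 21.7, 20.8 and 18.3 CPM in the sham livers and at 38.4, 30.7 and 35.3 CPM after MI (log2 fold change 0.78, SE 0.13, adjusted p = 0.000592 from edgeR). Stat3 was at 81.3, 115 and 88.8 CPM after sham operation and at 188, 169 and 193 CPM after MI (log2 fold change 0.94, SE 0.17, adjusted p = 0.00113). The groups did not overlap for either gene. Il6st (0.36, adjusted p = 0.103) and Socs3 (0.84, adjusted p = 0.143) did not pass the edgeR test. Of 31 genes of this signaling list, 12 rose and 6 fell, among them the interleukin-1 receptor Il1r1 (3.24) and the oncostatin M receptor Osmr (2.09) upward and the leukemia inhibitory factor receptor Lifr (−2.33) downward.

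Interferon-stimulated genes fell in 24 of 32 genes tested, and the other 8 did not pass, with a median log2 fold change of −0.97 against 21.7% of all genes falling. Irf7, a transcription factor that amplifies interferon expression, was at 47.2, 46.4 and 48.8 CPM in the sham livers and at 12.6, 14.1 and 14.0 CPM after MI (log2 fold change −1.80, SE 0.21, adjusted p = 6.96e-05 from edgeR). The antiviral genes Rtp4 (−2.00), Isg15 (−1.73), Ifit1 (−2.13) and Ifit3 (−1.78) fell with it. Among 19 genes of NF-kB signaling and cytokine feedback 2 rose and 6 fell, including Nfkb2 (−1.08) and the interleukin-1 receptor antagonist Il1rn (−1.80). Among 16 chemokines 3 rose, namely Cxcl14 (3.42), Cxcl13 (2.64) and Ccl6 (2.15), and 6 fell, including Ccl27a (−3.35), Ccl2 (−2.10), Cxcl9 (−1.84) and Cxcl10 (−1.50). The change of Ccl2 rested on HMRKO + sham replicate 1, without which it was −0.41 (adjusted p = 0.631 from edgeR), and the call was also lost without any one of the HMRKO + MI livers.

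The plasma cascades were counted next. Complement genes fell in 14 of 25 tested and rose in 4, with Cfd, the protease of the alternative pathway, at −3.57, the mannose-binding lectin Mbl2 at −1.55 and C1s1 at −1.45, against rises that included the lectin pathway protease Masp1 (1.49), C4bp (1.00) and C3 (0.52). Of 23 coagulation genes, 5 rose (21.7%) and 7 fell (30.4%), the rises at the share among all genes. Besides the fibrinogen genes the rises included Vwf (1.22), the von Willebrand factor that binds platelets. The falls included prekallikrein Klkb1 (−3.26), heparin cofactor Serpind1 (−2.09) and factor F7 (−1.08), and the falls numbered 4 without HMRKO + sham replicate 1 or 3 or HMRKO + MI replicate 1.

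Genes known to respond to glucocorticoids had the largest share of rises among the hormone lists, with 17 of 22 higher, 1 lower (Sds, −0.88, a call lost without HMRKO + sham replicate 2 or HMRKO + MI replicate 1 or 2) and a median log2 fold change of 1.81. This list too was chosen with earlier results of these data known, so its share is a description. Fkbp5, a co-chaperone of the glucocorticoid receptor, was at 17.0, 38.8 and 14.0 CPM in the sham livers and at 179, 116 and 118 CPM after MI (log2 fold change 2.56, SE 0.38, adjusted p = 0.000312 from edgeR). Klf9 (1.72), Zbtb16 (2.58), the kinase Sgk1 (1.79), the tyrosine aminotransferase Tat (1.59) and Pdk4, the kinase that closes pyruvate dehydrogenase (3.69, and 2.33 without HMRKO + MI replicate 1), also rose, as did Cdkn1a, Igfbp1 and Sult1e1 named above. Tsc22d3 (−0.09) and Pck1 (−0.11) did not pass. The metallothioneins Mt1 (2.85) and Mt2 (3.18), which bind zinc and respond to glucocorticoids too, rose, though Mt2 ranged over 183, 766 and 117 CPM within the sham group. Of 9 metallothionein and zinc transport genes 6 rose. Proteins that carry, convert or bind the hormones moved the other way. Serpina6, the corticosteroid-binding globulin of plasma, was at 416, 307 and 552 CPM in the sham livers and at 19.2, 8.54 and 12.8 CPM after MI (log2 fold change −4.98, SE 0.46, adjusted p = 1.64e-05 from edgeR). The steroid reductase Srd5a1 (−2.80), the receptor co-chaperone Fkbp4 (−2.38) and the glucocorticoid receptor Nr3c1 (−0.48) fell, so that 5 of 10 genes of this list fell and 1 rose (Ncoa2, 0.84).

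**Figure D3:**
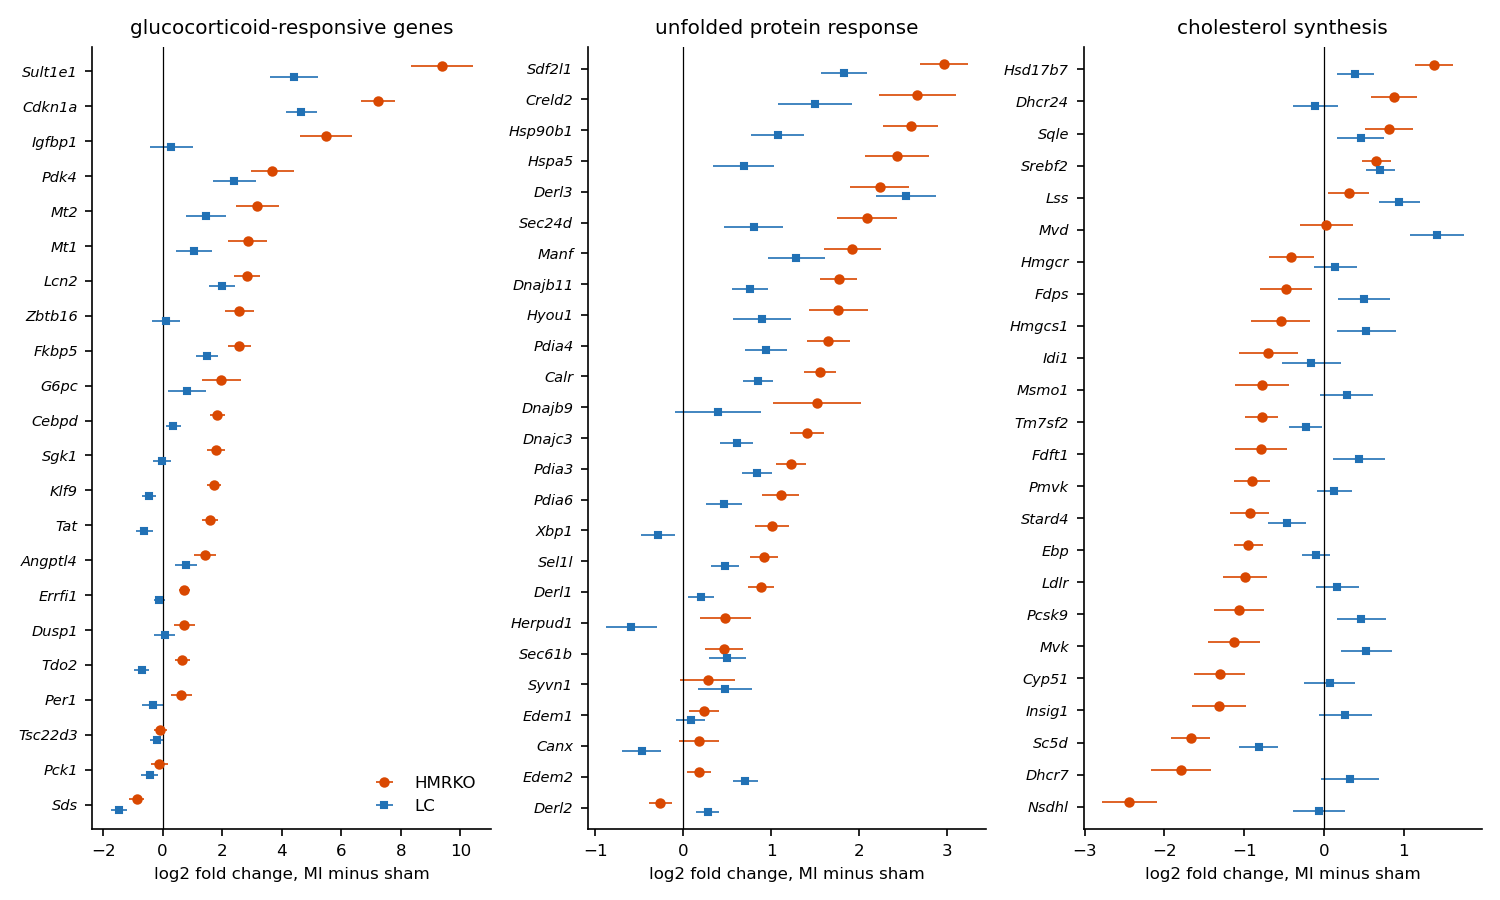
Points are log2 fold changes of MI over sham, with bars of 1 SE, for each tested member of the glucocorticoid-responsive, unfolded protein response and cholesterol synthesis lists, in HMRKO livers (circles) and LC livers (squares). The list medians were 1.81, 1.41 and −0.78 in HMRKO livers and 0.20, 0.69 and 0.28 in LC livers.

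FGF21 is a hormone that hepatocytes secrete under metabolic stress, and it signals through an FGF receptor with the coreceptor Klb. In HMRKO livers Fgf21 was at 0.670, 0.289 and 0.527 CPM after sham operation and 22.5, 13.6 and 9.84 CPM after MI (log2 fold change 4.92, SE 0.48, adjusted p = 2.25e-05 from edgeR). The lowest MI liver was above the highest sham liver. Klb was at 7.20, 6.31 and 6.93 CPM after sham operation and at 4.08, 6.17 and 9.69 CPM after MI, with overlapping groups (−0.04, adjusted p = 0.923), and Fgfr1 (−0.07, adjusted p = 0.79) did not pass either. Ppara, the fatty acid sensor that acts on the Fgf21 promoter, rose by 0.93, and Fgfr3 fell by 1.47, so that 2 of 10 genes of this axis rose and 2 fell. Each is 20% of the list, near the shares of all genes (22% and 21.7%). Of the corepressor pair Ncor1 and Hdac3, Hdac3 was lower (−0.53, adjusted p = 0.0111 from edgeR, and 0.0504 without HMRKO + MI replicate 2) and Ncor1 did not pass (−0.01, adjusted p = 0.953).

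Nuclear receptors, MR included, fell more often than they rose, 15 against 3 of 37 tested. Besides Nr3c2 the falls beyond a log2 fold change of 1 in size were the thyroid hormone receptor Thra (−1.86), the retinoic acid receptors Rara (−1.23) and Rarg (−1.16), Esrra (−1.34) and the clock repressors Nr1d1 and Nr1d2. The rises were Nr2c2 (1.71), Ppara (0.93) and Hnf4a (0.43). Smaller falls were those of Rarb (−0.91), Ppard (−0.75), Nr1i3 (−0.69), Nr2f6 (−0.59), Nr5a2 (−0.58), Pparg (−0.47) and Nr1h3 (−0.40). The calls of Hnf4a and Pparg were lost when any of the 6 HMRKO livers was left out, that of Nr1h3 when any but HMRKO + sham replicate 3 was, and that of Nr5a2 without HMRKO + sham replicate 1 or 2 or HMRKO + MI replicate 1, where it was −0.37, or 2. Of 18 transcription factors of hepatocyte identity, 4 rose, including Cebpd (1.84) and Cux2 (2.19), and 3 fell, including Cebpa (−1.50) and Bcl6 (−2.51). These shares, 22.2% and 16.7%, were near or below those of all genes (22% and 21.7%). The rises numbered 2 without HMRKO + sham replicate 1 or HMRKO + MI replicate 2, and Cux2 was at 1.14 (adjusted p = 0.191 from edgeR) without the latter. In the insulin and insulin-like growth factor axis 3 of 16 genes rose (Igfbp1, Irs2 at 1.21 and Igfbp3 at 1.21) and 2 fell. The falls were the acid-labile subunit Igfals (−2.44) and the growth hormone receptor Ghr (−0.68), and they numbered 4 without LC + MI replicate 1. With all livers both shares of this axis were below those of all genes (22% and 21.7%).

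Clock genes moved in both directions, and the hour of sampling was not given, so a shift of the hour and a change at a fixed hour cannot be told apart. Arntl (BMAL1), the activator of the loop, was at 0.335, 0.337 and 0.614 CPM in the sham livers and at 5.82, 5.0 and 4.52 CPM after MI (log2 fold change 3.55, SE 0.39, adjusted p = 5.08e-05 from edgeR), and Clock (1.17) and Cry1 (1.65) rose as well. The repressors Nr1d1 (80.9, 84.5 and 81.8 CPM after sham operation, 27.8, 16.2 and 22.8 CPM after MI, −1.89) and Nr1d2 (−1.33) fell, with Per3 (−2.08), Per2 (−1.35) and Ciart (−1.95). In all, 4 of 17 clock genes rose and 6 fell, and among 11 output genes 3 rose and 4 fell, among them Dbp, Usp2 (−3.14) and Tef (−1.73). The changes of Arntl, Nr1d1 and Nr1d2 in LC livers were 3.06, −2.35 and −1.32 on the log2 scale. Their differences between genotypes did not pass the test (adjusted p = 0.536, 0.553 and 0.984 from edgeR).

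Lipid genes divided by pathway. Fatty acid synthesis genes fell in 10 of 20 and rose in 3. Srebf1, the transcription factor that drives lipogenesis, was at 263, 242 and 417 CPM in the sham livers and at 40.1, 50.5 and 49.2 CPM after MI (log2 fold change −2.72, SE 0.22, adjusted p = 1.02e-05 from edgeR). The acetyl-CoA synthetase Acss2 (−2.63), the desaturase Fads1 (−1.84) and the carbohydrate sensor Mlxipl (−1.70) fell with it. Insig2, which holds SREBP precursors in the ER, was at 44.8, 34.3 and 28.6 CPM after sham operation and at 533, 386 and 582 CPM after MI (3.80), with no overlap. Cholesterol synthesis genes fell in 12 of 24 and rose in 4, with a median log2 fold change of −0.78, where the rises numbered 2 without HMRKO + sham replicate 1 or 2 or HMRKO + MI replicate 2 or 3, and the falls were led by Nsdhl (−2.44), Dhcr7 (−1.79), Sc5d (−1.67), Insig1 (−1.32) and Cyp51 (−1.31). Genes of the lipid droplet rose in 7 of 19 and fell in 2. Its coat proteins Plin2 (2.51), Plin4 (3.27) and Plin5 (2.03) rose, and Cidec, which fuses droplets, was at 5.24, 4.48 and 6.06 CPM in the sham livers and at 137, 67.0 and 177 CPM after MI (4.59).

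Fatty acid oxidation and ketogenesis genes, many of them targets of PPARα, rose in 16 of 30 and fell in 6. The carnitine palmitoyltransferase Cpt1a (0.94) and the hydroxylases Cyp4a10 (1.91) and Cyp4a14 (2.56) rose, the latter 2 at 1.27 and 1.52 without HMRKO + MI replicate 3 with the call of Cyp4a14 lost, whereas the fatty acid binding protein Fabp1 (−2.52) and Acaa1b (−2.35) fell. Without HMRKO + MI replicate 3 the rises in this list numbered 10, and without HMRKO + sham replicate 3 the falls numbered 3. Of 21 apolipoprotein and lipoprotein genes 6 rose, including the cholesterol exporter Abca1 (1.75) and Apoa4 (2.44), and 8 fell, including Apoc1 (−1.28) and the lipase inhibitor Angptl8 (−1.99), which was at −1.24 (adjusted p = 0.149 from edgeR) without HMRKO + sham replicate 3 and lost its call also without HMRKO + MI replicate 1 or 3. In bile acid synthesis and transport 6 of 16 fell and 2 rose. The bile salt export pump Abcb11 fell by 2.39 on the log2 scale. Cyp7a1, the rate-limiting enzyme of bile acid synthesis, was at 16.0, 19.4 and 69.1 CPM in the sham livers and at 10.7, 7.27 and 9.49 CPM after MI (−1.93, adjusted p = 0.014 from edgeR), a call that was lost without HMRKO + sham replicate 3 (adjusted p = 0.110) or HMRKO + MI replicate 2 (adjusted p = 0.0548).

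Among 18 genes of gluconeogenesis and glycogen, 5 rose and 5 fell, 27.8% each, against 22% and 21.7% of all genes. The gluconeogenic G6pc (1.97), Slc37a4 (1.41), Fbp1 (1.16) and Pcx (0.61) rose, and the falls included the glycogen-targeting subunit Ppp1r3g (−4.73) and the kinase Pfkfb1 (−1.04). The rises numbered 3 without HMRKO + sham replicate 1 or 2 or HMRKO + MI replicate 1 or 3. Among abundant genes outside this list, Mat1a, which makes S-adenosylmethionine, rose by 1.99 on the log2 scale. Amino acid breakdown genes fell in 14 of 28 and rose in 6. The hydroxyproline enzyme Prodh2 (−2.80), the histidine enzyme Uroc1 (−2.03), the tyrosine enzyme Hgd (−1.67) and the glutaminase Gls2 (−1.62) fell, whereas Sdsl (2.53), Gpt2 (1.79) and Aass (1.65) rose. Without HMRKO + MI replicate 2 the falls in amino acid breakdown numbered 9. Of 8 urea cycle genes 2 rose, Arg1 (1.75) and Asl (1.60), and 2 fell, Otc (−0.54) and Slc25a13 (−0.50), shares near those among all genes. Both falls were lost without HMRKO + sham replicate 1 or 3 or HMRKO + MI replicate 1 or 2, and that of Slc25a13 also without HMRKO + sham replicate 2, LC + sham replicate 2 or 3 or LC + MI replicate 2 or 3, while it was −0.79 without HMRKO + MI replicate 3.

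Enzymes that clear drugs and steroids fell more often than they rose. Cytochrome P450 genes of families 1 to 3 fell in 12 of 24 and rose in 2, with Cyp2a5 at 612, 877 and 1001 CPM in the sham livers and at 82.8, 42.0 and 118 CPM after MI (log2 fold change −3.36, SE 0.42, adjusted p = 0.000102 from edgeR), Cyp2c54 at −2.59, Cyp2c29 at −1.36 and Cyp1a2 at −1.65 in log2 fold change. Conjugation enzymes fell in 14 of 27 and rose in 3, the sulfotransferases Sult1e1 (9.38), Sult1d1 (1.10) and Sult1b1 (0.72). The glutathione transferase Gsta3 (−2.50), the glucuronosyltransferase Ugt2b34 (−2.23) and the sulfotransferase Sult2a8 (−3.06) were among the falls. Both families hold close paralogs whose reads the counting could split.

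Genes that build ribosomes rose in 16 of 24 tested, and the others did not pass, with a median log2 fold change of 0.78. The list holds nucleolar factors, and the rises were led by Rrp12 (1.75), Nop58 (1.45), Heatr1 (1.17), Gar1 (1.15) and Ncl (1.02). Ribosomal protein genes rose in 13 of 44, with Rpl3 at 1.26, and proteasome genes in 14 of 30, with Psmc1 at 0.88 and Psmd8 at 0.86. However, these counts were smaller when any of several single livers was left out. Ribosomal proteins had 4 rises without HMRKO + sham replicate 2, 5 without HMRKO + sham replicate 3 or HMRKO + MI replicate 1 and 6 without HMRKO + MI replicate 2, and proteasome genes had 7 rises without HMRKO + sham replicate 2 and 9 without HMRKO + MI replicate 2 or 3. Ribosome biogenesis had 16 rises without HMRKO + sham replicate 2. Cell cycle genes fell in 5 of 24, including the survivin gene Birc5 (−3.54), E2f1 (−2.83) and Plk1 (−1.62), and rose in 2, Rrm2 (4.11), a subunit of ribonucleotide reductase, and Pcna (0.64, a call lost without HMRKO + sham replicate 2 or 3 or HMRKO + MI replicate 2). Of 15 genes of p53 signaling and growth arrest 3 rose, Cdkn1a, Btg2 (1.32) and Trp53inp1 (0.80, and 0.52 with adjusted p = 0.133 from edgeR without HMRKO + sham replicate 2), and 2 fell, Gadd45a (−2.15) and Bbc3 (−1.19). Immediate early genes rose in 7 of 18, among them Egr1 (3.17) and Ier3 (2.05). Hypoxia targets rose in 4 of 13, among them Ldha (1.90) and Adm (2.23), and fell in 2, Vegfa (−1.24) and Egln3 (−0.88), and the call of Egln3 was lost without HMRKO + sham replicate 1 or HMRKO + MI replicate 1 or 3. Targets of NRF2 rose in 3 and fell in 3 of 15, with Hmox1 at 1.67 and Gclc at −1.19, and 1 fell without HMRKO + sham replicate 1 or HMRKO + MI replicate 2. Several of these shares were near those of all genes (22% rising and 21.7% falling). They were the cell cycle falls (20.8%), the p53 rises (20%) and both directions among NRF2 targets (20% each).

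Mitochondrially encoded genes fell in 4 of 15 and the others did not pass. The falls, 26.7% of this list, were near the share of all genes (21.7%). The ribosomal RNA mt-Rnr1 was at 920.4, 1639 and 995 CPM in the sham livers and at 232, 229 and 149.7 CPM after MI (log2 fold change −2.54, SE 0.46, adjusted p = 0.000942 from edgeR), mt-Rnr2 fell by 2.26 on the log2 scale, and mt-Nd3 and mt-Co3 fell by 1.07 and 0.80. The highest mt-Rnr1 value belonged to HMRKO + sham replicate 2, the library with the highest mitochondrial share. Without it 3 of these genes fell. Nuclear genes of the respiratory chain fell in 7 of 34 and rose in 1 (Atp5a1, 0.71, a call lost without sham replicate 2 or 3 or MI replicate 2 or 3), and the falls numbered 3 when sham replicate 2, MI replicate 2 or MI replicate 3 was left out. The falls, 20.6% of the list, were near the share of all genes (21.7%).

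**Figure D4:**
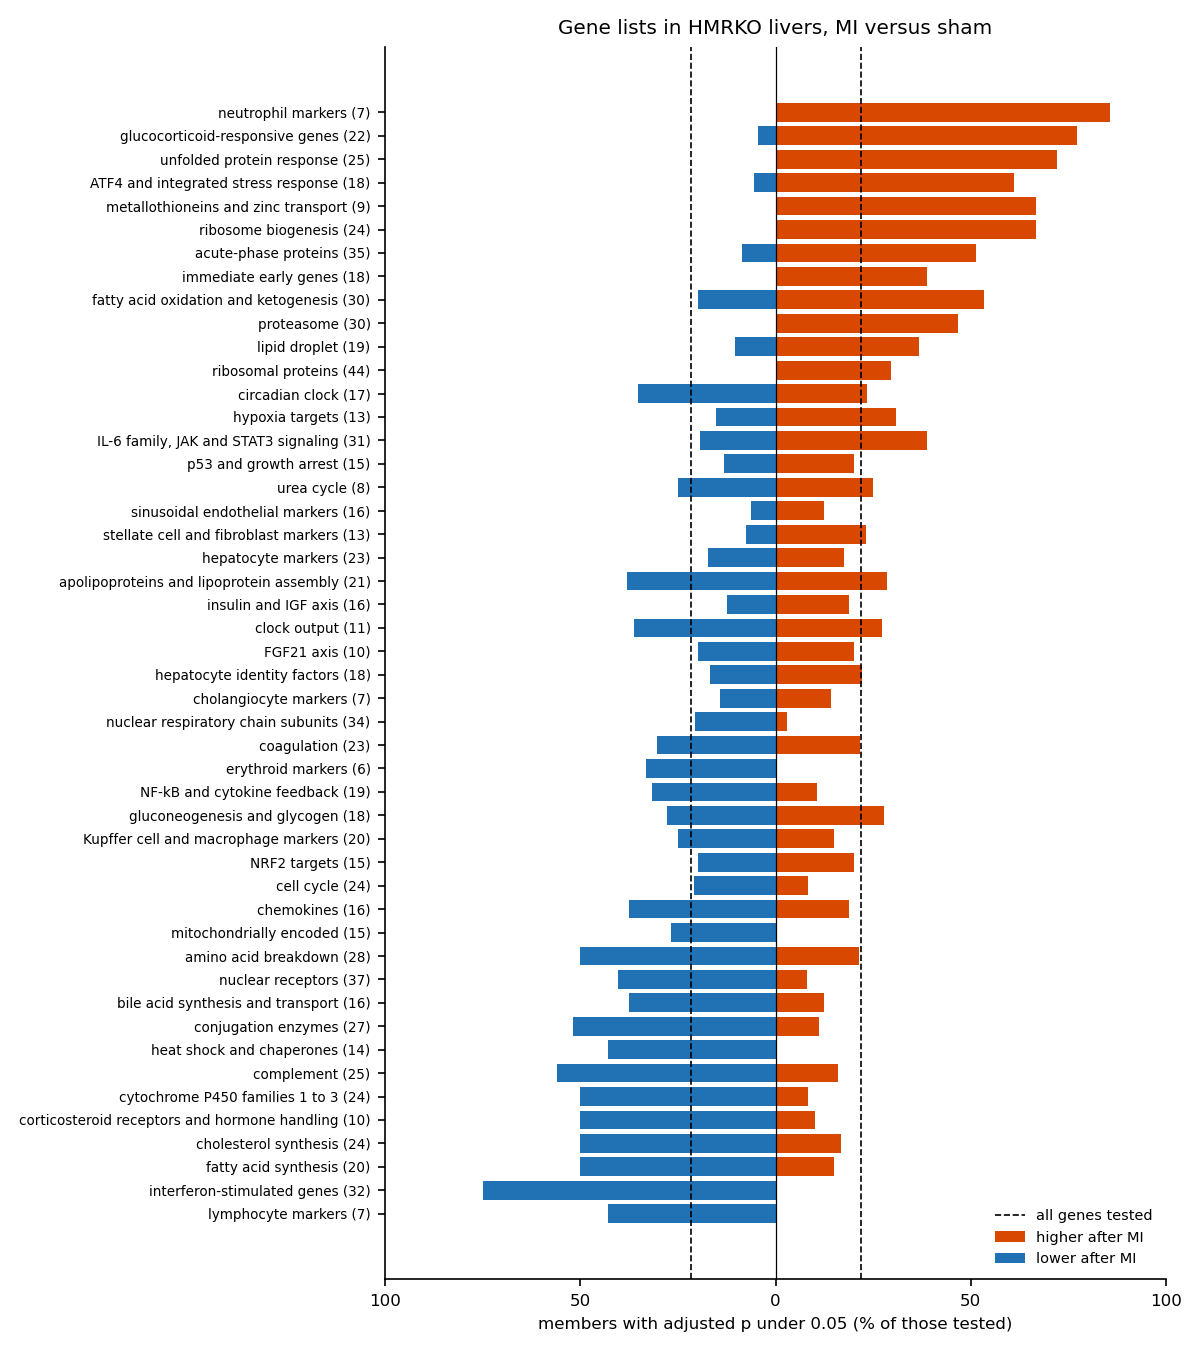
Bars give, for each list with at least 5 tested genes (number in parentheses), the percentage of members with an adjusted p under 0.05 from edgeR that were higher (right) or lower (left) in HMRKO + MI than in HMRKO + sham livers, ordered by median log2 fold change, and dashed lines mark the shares among all genes tested, 22% and 21.7%. The unfolded protein response (72%) and glucocorticoid-responsive genes (77.3%) stand to the right of the line, and interferon-stimulated genes (75%) to the left. The lists were chosen with earlier results of these data known.

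Markers of other cell types were measured beside these groups, and their part in the results was not tested. Summed over their lists, neutrophil markers were at 9.551 to 14.4 CPM in HMRKO + sham livers and at 31.46 to 35.01 CPM in HMRKO + MI livers. Of 7 neutrophil genes tested 6 rose, among them Retnlg (0.126, 0.241 and 0.176 CPM after sham operation and 6.38, 4.24 and 3.96 CPM after MI), Mmp8 (4.44) and S100a9 (2.02). Lymphocyte markers summed to 4.866 to 7.417 CPM after sham operation and to 1.716 to 2.842 CPM after MI, and 3 of 7 fell, among them Cd79a (−3.82) and Nkg7 (−3.26). Kupffer cell and macrophage markers summed to 272.7 to 370.9 and 208.4 to 319.8 CPM, with 3 of 20 higher (Marco at 2.06, Cd14 at 1.95 and Cd163 at 1.05) and 5 lower, including Clec4f (−0.84), a number that was 2 without HMRKO + sham replicate 3 and 3 without HMRKO + sham replicate 1 or HMRKO + MI replicate 1 or 2. Marco was at 1.22 (adjusted p = 0.124 from edgeR) without HMRKO + MI replicate 3, and its call was also lost without HMRKO + sham replicate 1 or 3. The sums overlapped between operations for sinusoidal endothelial markers (230.3 to 344.6 and 249.9 to 376 CPM, 2 rises and 1 fall among 16), stellate cell and fibroblast markers (140.9 to 319 and 208.2 to 345 CPM, 3 and 1 among 13), cholangiocyte markers (77.95 to 144.6 and 50.49 to 95.18 CPM, 1 and 1 among 7) and erythroid markers (198.2 to 353.6 and 159.5 to 217.5 CPM, 2 falls among 6). Of these counts, the stellate cell list had 1 rise and 4 falls without HMRKO + sham replicate 2 and 1 rise without HMRKO + MI replicate 2, the endothelial list 1 rise without HMRKO + sham replicate 1 or 3 or HMRKO + MI replicate 1 or 2 and no call downward without HMRKO + sham replicate 3 or HMRKO + MI replicate 1, and the cholangiocyte fall was lost without HMRKO + sham replicate 1 or HMRKO + MI replicate 2 or 3. The erythroid falls numbered 1 when any liver other than HMRKO + sham replicate 1 was left out. Hepatocyte markers summed to 82840 to 105400 CPM after sham operation and to 121900 to 127400 CPM after MI, with 4 of 23 higher and 4 lower, the former being 2 without HMRKO + sham replicate 2 or 3, LC + sham replicate 3 or LC + MI replicate 2 or 3. With all livers each hepatocyte share was 17.4%, below those of all genes (22% and 21.7%). Both shares were also below those of all genes for endothelial markers and for cholangiocyte markers (14.3% each). Kupffer cell and macrophage rises (15%) were below the share of all genes, and the falls (25%) were near it. Stellate cell and fibroblast rises (23.1%) were near it and the falls (7.69%) below it. Erythroid falls (33.3%, 2 of 6 genes) were above it. Heart muscle genes Myh6, Myh7 and Mb had no counts in the 6 HMRKO livers, and of the 2 heart genes tested Tnnt2 rose (2.18, and 3.31 without HMRKO + sham replicate 3) and Tnni3 fell (−2.70, a call lost without HMRKO + sham replicate 2 or 3 or HMRKO + MI replicate 1 or 3), with the whole list under 1.57 CPM in each liver.

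The MI response of HMRKO livers was set beside that of LC livers to ask which changes depended on genotype. In LC livers 206 genes (1.44%) were higher and 149 (1.04%) lower by the same thresholds, 2.49% in all. Of the 2914 genes called in HMRKO livers, 246 (8.44%) were also called in the same direction in LC livers, which is 69.3% of the 355 LC calls, and 2 were called in the opposite direction. The difference of the responses, tested for each gene as an interaction in the edgeR model, passed for 962 genes (6.74%) that were higher in HMRKO and 1213 genes (8.5%) that were lower, 15.2% in all. Among the 2914 HMRKO calls, 1237 (42.5%) passed this test, 713 of them with the same sign and a smaller size in LC livers and 524 with the opposite sign in LC livers. For 0 of them was the change of the same sign and smaller in HMRKO livers. These genes were chosen by a large HMRKO change, which is also a part of the interaction. The choice favors such a split, so it cannot show which response was larger. Among the LC + MI livers replicate 1 stood apart, with a mitochondrial share of 18.94%. Its log2 CPM correlated at 0.9665 and 0.9696 with LC + MI replicates 2 and 3, which correlated at 0.9868 with each other. With the LC + sham livers it correlated at 0.9546 to 0.9652, nearly as high. Why it stood apart was not tested. The LC counts moved when any of several single livers was left out. Leaving out an LC sham liver gave 110 higher and 85 lower genes (replicate 2) or 105 and 96 (replicate 3), and leaving out an LC MI liver gave 97 and 43 (replicate 2), 96 and 47 (replicate 3) or 280 lower (replicate 1). The interaction counts did so too. They were 400 higher and 583 lower when LC + sham replicate 2 was left out and 559 and 727 when LC + MI replicate 1 was. Leaving out an HMRKO sham liver gave 490 and 716 (replicate 2) or 548 and 792 (replicate 3), and leaving out an HMRKO MI liver gave 581 and 737 (replicate 1), 613 and 749 (replicate 2) or 612 higher (replicate 3). The HMRKO counts did not move by over 1.5 times when any liver was left out. The median size of the log2 fold change over all genes was 0.529 in HMRKO and 0.258 in LC livers.

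**Figure D5:**
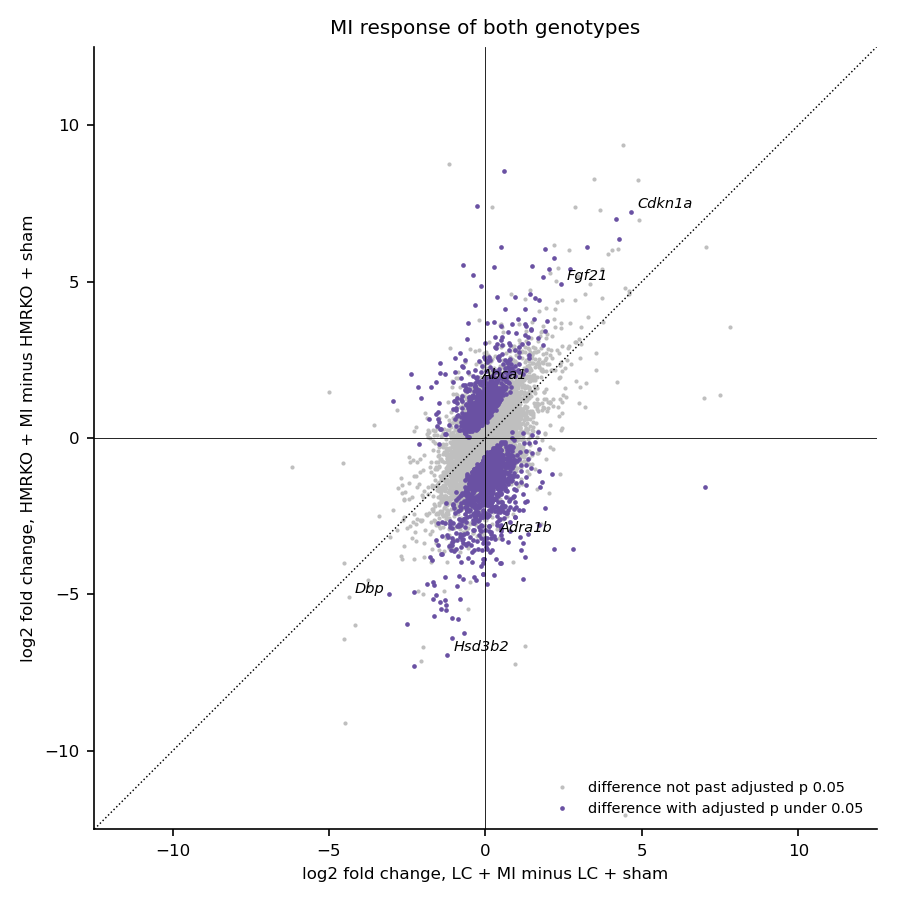
Each point is 1 of 14266 genes, with the log2 fold change of MI over sham in LC livers on the x axis and in HMRKO livers on the y axis, and the dotted line marks equal change. Colored points are the 2175 genes whose difference between genotypes had an adjusted p under 0.05 from edgeR, and Dbp, near the line at the lower left, is not among them.

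The genes with the smallest interaction p are given with the values of both genotypes. Adra1b, the α1B-adrenergic receptor of hepatocytes, was at 97.7, 120.1 and 115 CPM in HMRKO + sham and at 11.5, 11 and 15.8 CPM in HMRKO + MI livers, while in LC livers it was at 90.7, 76.6 and 98.5 CPM after sham operation and at 159.8, 69.8 and 91.4 CPM after MI (difference of log2 fold changes −3.40, SE 0.37, adjusted p = 0.00354 from edgeR). The transporter Slc47a1 (difference −3.25), the protease gene Prss53 (−3.43), the scavenger receptor Scarf1 (−2.79), Tmem25 (−3.24), the antisense transcript Hnf1aos1 (−4.26), whose counts may include reads of its partner, and Hsd3b2 (−5.72) went the same way. Abca1 was at 73.6, 73.4 and 61.4 CPM and at 295, 181 and 224 CPM in HMRKO livers against 92.2, 83.2 and 83.9 CPM and 64.4, 69.9 and 73.5 CPM in LC livers (difference 2.07, SE 0.24, adjusted p = 0.0038 from edgeR). The growth factor Nrg4 (2.68) and the RNA helicase Ddx28 (1.47) were likewise higher in HMRKO.

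Differences between genotypes also passed for several genes of the groups above. In LC livers Fgf21 was at 0.754, 0.259 and 0.261 CPM after sham operation and at 1.80, 3.42 and 1.63 CPM after MI, a rise of 2.40, and the difference was 2.51 (SE 0.70, adjusted p = 0.0323 from edgeR). In the LC groups this call was lost when sham replicate 1 was left out (adjusted p = 0.122), or MI replicate 1 (0.0650) or 3 (0.0544), and in the HMRKO groups when sham replicate 2 (0.0760) or 3 (0.0597) or MI replicate 1 (0.0615) was. Il6ra fell in LC livers (−0.52) and rose in HMRKO livers (0.78), a difference of 1.30 (adjusted p = 0.00405 from edgeR). For Fga the difference was 2.79, for Igfbp1 5.20, for Klf9 2.17, for Asns 4.12 and for Insig2 2.23, all larger in HMRKO livers. For Nsdhl it was −2.38 and for Srebf1 −1.20, the last call being lost without LC + sham replicate 2 (adjusted p = 0.0558) or HMRKO + MI replicate 1 (0.0509). By list, the interaction passed upward for 10 of 35 acute-phase genes, 9 of 22 glucocorticoid-responsive genes, 9 of 24 ribosome biogenesis genes, 9 of 31 genes of interleukin-6 and STAT3 signaling and 6 of 25 unfolded protein response genes, and downward for 7 of 24 cholesterol synthesis genes, against 6.74% and 8.5% of all genes. The mitochondrial share was 7.525% to 9.645% in LC + sham and 10.87% to 18.94% in LC + MI libraries, opposite in order to the HMRKO groups, and the interaction passed downward for 6 of 15 mitochondrially encoded genes.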

How the data were processed

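Livers of HMRKO and LC mice were flash frozen according to the labels and kept in RNAlater according to the study's methods. RNA was extracted with Trizol, per the labels, and libraries were made with the Illumina TruSeq RNA kit. The authors deposited a table of raw read counts per gene, which pairs Ensembl identifiers with symbols. In the submitters' processing notes stand the mouse build mm9 and the tools TopHat2, HISAT2 2.1.0, Bowtie2 2.2.3 and DESeq2, with no role for each, and whether strand was used in counting was not given in the sources used here. Livers taken at 12 hours were not used here.

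The 12 livers taken at 1 day (4 groups of 3) were fitted together with edgeR 4.0.16 (quasi-likelihood, TMM, R 4.3.3), after genes with low counts were removed (filterByExpr, minimum count 10 and total 15). SEs were computed from the log2 fold change and the F statistic, and p-values were adjusted over 14266 genes. Calls needed an adjusted p under 0.05 and a log2 fold change beyond 1 in size, or any fold for list members and interactions. The script was tested on simulated counts. The common biological coefficient of variation was 0.209, and libraries of 19098704 to 28945526 counts leave a smaller counting error for all but low genes.

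The members and gene lists were chosen with earlier results of these data known. Genes named were those that the study discusses for the liver, the 15 largest rises and 15 largest falls with a symbol (predicted and clone names left out), groups that did not overlap and a mean of at least 1 CPM, the 10 most abundant called genes, nuclear receptors that passed, up to 6 members per list by p, and the 10 called genes with the smallest interaction p. Some further members were named after their values were seen. Not every gene so chosen is reported here. Promoters came from RefSeq (GRCm38.p6), and their coordinates are of that build, not of mm9. Alternatives were RLE scaling, DESeq2 1.42.0, other filters and thresholds, a replicate block and leaving out each liver. The replicate numbers did not pair the livers.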

Additional observations from a re-analysis of the deposited data

Results flagged for a closer look

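The test of the difference between the MI responses of HMRKO and LC livers, an interaction term in edgeR, was passed by 962 genes higher in HMRKO and by 1213 genes lower in HMRKO. These counts ranged from 400 to 985 and from 583 to 1283 when single livers were left out, with the lowest values without LC + sham replicate 2. Groups of 3 livers are too small for a test of single outlying livers.

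For genes named above, the difference of log2 fold changes (HMRKO minus LC) and its adjusted p from edgeR were as follows. It was lower in HMRKO for Prss53 (−3.43, adjusted p = 0.00297), Adra1b (−3.40, adjusted p = 0.00354), Slc47a1 (−3.25, adjusted p = 0.00378), Hsd3b2 (−5.72, adjusted p = 0.0039), Scarf1 (−2.79, adjusted p = 0.0039), Tmem25 (−3.24, adjusted p = 0.00397), Hnf1aos1 (−4.26, adjusted p = 0.00403), Nsdhl (−2.38, adjusted p = 0.0107) and Srebf1 (−1.20, adjusted p = 0.0218). It was higher in HMRKO for Abca1 (2.07, adjusted p = 0.0038), Ddx28 (1.47, adjusted p = 0.0039), Nrg4 (2.68, adjusted p = 0.00403), Insig2 (2.23, adjusted p = 0.00403), Il6ra (1.30, adjusted p = 0.00405), Fga (2.79, adjusted p = 0.00537), Klf9 (2.17, adjusted p = 0.00581), Asns (4.12, adjusted p = 0.00752), Igfbp1 (5.20, adjusted p = 0.0128) and Fgf21 (2.51, adjusted p = 0.0323). Of these, the calls of Fgf21 and Srebf1 were lost without single livers, with adjusted p up to 0.122 and 0.0558.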

How the results depend on the processing

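The count of 1293 higher and 1621 lower genes in HMRKO livers stayed within 1.5 times under RLE scaling, DESeq2, both other filters, the leaving out of mitochondrially encoded genes, the fit to the 6 HMRKO livers alone and unadjusted p. It was 3138 and 3099 with no fold threshold, 344 and 486 at a log2 fold change beyond 2, and 1206 to 1349 and 1515 to 1670 when each liver was left out in turn. The LC counts (206 and 149) were less stable. DESeq2 gave 241 lower, no filter 314 and 290, the 6 LC livers alone 118 and 89, no fold threshold 382 and 332, a log2 fold change beyond 2 61 and 38, and unadjusted p 439 and 384. Without single livers they ranged from 96 to 275 and from 43 to 280. The interaction counts were 2287 and 2463 at unadjusted p and 400 to 985 and 583 to 1283 without single livers. The log2 fold change of Nr3c2 was −1.77 to −1.49 without single livers.

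Livers of the 2 operations share replicate numbers, but within HMRKO mice the deviations of same-numbered livers correlated at −0.0963, −0.0562 and −0.0152 and within LC mice at 0.165, 0.182 and −0.0383, so the numbers were not taken as pairs. With a replicate block the HMRKO counts were 1254 and 1584, the LC counts 198 and 150, the interaction counts 1015 and 1221, and Nr3c2 was at −1.66. Of the named genes, 38 lost their call under at least 1 alternative, all of them also when an HMRKO liver was left out. Without HMRKO + sham replicate 1 these were C3, Ccl2, Ces2b, Cfb, Cux2, Cxcl10, Cyp2c29, Egln3, G6pc, Hnf4a, Hspb1, Marco, Nr1h3, Nr5a2, Otc, Plk1, Pparg, Slc25a13 and Sult1b1. Without HMRKO + sham replicate 2 they were Atp5a1, Cyp2a4, Cyp2c69, Fbp1, G6pc, Hnf4a, Igfbp3, Nr1h3, Nr5a2, Pcna, Plk1, Pparg, Saa4, Sds, Slc25a13, Sult1b1, Tnni3, Trp53inp1 and mt-Co3. Without HMRKO + sham replicate 3 they were Angptl8, Atp5a1, C3, Cyp7a1, Hnf4a, Marco, Nr1i3, Nr3c1, Otc, Pcna, Pparg, Slc25a13, Sult1b1, Tnni3, Trp53inp1 and mt-Co3. Without HMRKO + MI replicate 1 they were Angptl8, Ccl2, Cfb, Cxcl10, Cyp2c29, Cyp2c69, Egln3, G6pc, Hnf4a, Nr1h3, Nr3c1, Nr5a2, Otc, Plk1, Pparg, Saa4, Sds, Slc25a13, Sult1b1, Tnni3, Trp53inp1 and mt-Co3. Without HMRKO + MI replicate 2 they were Atp5a1, C3, Ccl2, Cfb, Cux2, Cyp2a4, Cyp2c29, Cyp2c69, Cyp7a1, G6pc, Hdac3, Hnf4a, Hspb1, Nr1h3, Nr5a2, Otc, Pcna, Pparg, Sds, Slc25a13, Sult1b1 and mt-Co3. Without HMRKO + MI replicate 3 they were Angptl8, Atp5a1, C3, Ccl2, Cxcl13, Cyp2a4, Cyp4a14, Egln3, Fbp1, Hamp2, Hnf4a, Hspb1, Marco, Nr1h3, Pparg, Sult1b1, Tnni3, Trp53inp1 and mt-Co3. For 13 of the 38 genes the call was also lost under an alternative other than leaving out a liver. With no filter these were C3, Hnf4a, Nr1h3 and Pparg. The replicate block lost Angptl8, Ccl2, Cxcl10, Cyp2c69, Hnf4a, Marco, Nr1h3, Nr5a2 and Pparg. The fit to the 6 HMRKO livers alone lost Nr5a2, Slc25a13 and Trp53inp1. Sult1b1 was lost under RLE scaling and without mitochondrially encoded genes. The cause of these losses was not tested. Il6st passed without HMRKO + sham replicate 2, and Socs3 passed with no filter and with the replicate block. Values of genes that did not pass changed sign without single livers. The log2 fold change ranged from −0.34 to 0.0823 for Fgfr1, from −0.40 to 0.215 for Klb, from −0.0843 to 0.103 for Ncor1, from −0.38 to 0.148 for Pck1 and from −0.16 to 0.0453 for Tsc22d3.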

Other observations

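Genes whose liver expression differs between the sexes were listed after values had been seen, because the HMRKO changes included several of them. Of 18 male-biased genes tested 10 fell and 1 rose, with a median log2 fold change of −0.96 after MI in HMRKO livers. Hsd3b5 was at 129, 123 and 45.2 CPM in the sham livers and at 0.895, 3.10 and 7.41 CPM after MI (log2 fold change −4.70, SE 0.67, adjusted p = 0.000238 from edgeR), and Keg1 (−5.34), Susd4 (−2.09) and Slco1a1 (−1.80) fell as well, while Cyp2d9 (1.03) rose. Hsd3b5 belongs to a family with near-identical members. Of 9 female-biased genes tested 2 fell, Cyp2a4 (−3.17) and Cyp2c69 (−1.73), and 1 rose, Cux2 (2.19). The falls are at the share among all genes (21.7%), and without single livers this list had up to 4 falls and 2 rises (without LC + MI replicate 1). Cux2 lost its call without HMRKO + sham replicate 1 or HMRKO + MI replicate 2, Cyp2a4 without HMRKO + sham replicate 2 or HMRKO + MI replicate 2 or 3, and Cyp2c69, at −1.11 without HMRKO + sham replicate 2, without that liver or HMRKO + MI replicate 1 or 2.

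Other promoter elements were counted in the same 250-base windows. The E-box CACGTG was found for 4 of 12 clock genes with an entry and for 6.86% of all genes, the D-box TTATGTAA for 1 of 12 and 0.977%, and the glucocorticoid response element (AGAACA and TGTTCT with 3 bases between them) for 1 of 18 glucocorticoid-responsive genes, with 3 matches among the 27025 genes. Matches on both strands were counted, and a match is a run of letters and not a measured site.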
